A study of Mus musculus with 6 samples.

Results

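MHC class I molecules display peptides from inside the cell to CD8+ T cells, and their absence from the surface is read by natural killer cells. The proteasome cuts proteins into peptides, TAP pumps the peptides into the endoplasmic reticulum, and tapasin holds empty class I molecules at TAP until a peptide binds. Interferons raise most genes of the pathway, and NLRC5 switches on class I genes through a shared promoter module. The 10 genes followed here were chosen by name for these roles, and all 10 were present among the 16440 genes of the expression table. They were the class I heavy chains H2-K1 and H2-D1 and their light chain B2m, the peptide loading genes Tap1, Tap2 and Tapbp (tapasin), the immunoproteasome subunits Psmb8, Psmb9 and Psmb10, and Nlrc5.

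The table held 6 RNA-seq libraries of mouse bone marrow (BM) cells on the FVB N/J background, 3 of normal myeloid progenitors (MPs) and 3 of c-Kit+ acute promyelocytic leukemia (APL) cells. For the MPs, the Lin-Sca-1-c-Kit+ fraction was sorted, which mixes granulocytic, monocytic, megakaryocytic and erythroid progenitors. The APL cells derived from hMRP8-PML/RARα mice, in which the myeloid MRP8 promoter drives the fusion gene. They carried GFP from a retroviral vector, had been expanded by transplantation into syngeneic mice, and were sorted for GFP and c-Kit but not against lineage markers. No group had been treated with a drug, and ages are not given in the labels. The 3 libraries of a group were submitted as biological replicates. Whether each came from its own mouse is not stated, so n counts libraries, and a p measures the spread between these libraries only.

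Values are scaled fragments, the deposited estimate of sequenced fragments per gene after scaling by a factor of each library, and FPKM (fragments per length of transcript and depth of library) where genes are compared per length. Before scaling, the libraries held between 20608715 and 28382785 fragments. A gene was called when limma gave a Benjamini-Hochberg adjusted p under 0.05 over the 14595 genes tested and its fold change exceeded 1.5. By this rule 21.7% of the genes tested were higher in APL and 24.4% were lower, and the median log2 fold change over all of them was −0.10. MP library 3 stood somewhat apart from MP libraries 1 and 2, with an SD of the log2 difference of 0.33 and 0.32 over 10310 genes against 0.26 between the other pair, and APL library 2 from APL libraries 1 and 3 (0.32 and 0.31 against 0.24). No call of a member changed without either library. All 6 erythroid markers tested were lower in APL (summed FPKM between 1499.68 and 1976.86 in MP and between 12.2 and 23.2 in APL), and of 8 granulocytic markers 5 were higher and 1, Ltf, was lower (19808 to 27051 and 72087 to 86656). Of the lymphoid markers, Cd3e, Cd3g and Ms4a1 had too few fragments to test, and 2 of 3 B cell markers tested were lower in APL (summed FPKM between 12.2 and 14.7 in MP and between 0.305 and 0.638 in APL). Of the macrophage markers, 4 of 8 were higher and 2 lower (25.4 to 30.8 and 54.5 to 56.6), and of the dendritic cell markers 3 of 6 were lower. Of the other lists, 3 of 6 T and NK cell markers tested (240 to 266 and 241 to 267, nearly all of it Nkg7), 3 of 4 megakaryocytic markers (58.6 to 91.2 and 1.24 to 2.45) and 4 of 7 markers of endothelium and stroma were lower, the last with 2 higher. The gate gene Kit was lower in APL, as was Cd34 among the progenitor genes. Ly6a, which encodes Sca-1, was higher, but the MPs had been sorted to lack Sca-1, so this difference is not independent of the sort. The part of these shifts in the results below was not tested, and in sorted bulk cells fewer cells of a type and less RNA per cell cannot be told apart.

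The promoter windows of the chains are printed first because the module through which NLRC5 acts is known from class I promoters. Whether it bears on the changes below was not tested. Class I promoters carry an X2 box, a site for CREB and ATF factors, and a Y box, a site for NF-Y, and together with RFX these factors recruit NLRC5. The RefSeq windows (GRCm38.p6, 250 bases before to 50 after a transcript start, read 5′ to 3′ on the gene's strand) are chr17:34000284-34000583 on the minus strand for H2-K1, chr17:35262844-35263143 on the plus strand for H2-D1 and chr2:122147437-122147736 on the plus strand for B2m. Capitals mark every match, on either strand, to TGACG (X2 box), CCAAT (Y box, ATTGG on the other strand), GAAA followed after 2 bases by GAAA (the core of an interferon-stimulated response element, ISRE) and TTCNNNGAA (the GAS element of interferon-responsive promoters).
H2-K1: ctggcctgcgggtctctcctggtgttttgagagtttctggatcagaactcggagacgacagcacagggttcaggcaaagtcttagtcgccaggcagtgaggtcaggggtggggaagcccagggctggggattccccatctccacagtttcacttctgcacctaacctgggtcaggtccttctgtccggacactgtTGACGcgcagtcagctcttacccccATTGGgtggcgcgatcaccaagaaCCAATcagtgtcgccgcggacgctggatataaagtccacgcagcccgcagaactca
H2-D1: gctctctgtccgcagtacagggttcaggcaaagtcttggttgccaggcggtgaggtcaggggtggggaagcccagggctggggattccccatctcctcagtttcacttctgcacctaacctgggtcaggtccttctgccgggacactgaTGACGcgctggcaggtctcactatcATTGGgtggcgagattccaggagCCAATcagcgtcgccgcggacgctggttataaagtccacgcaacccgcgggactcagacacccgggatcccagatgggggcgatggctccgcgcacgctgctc
B2m: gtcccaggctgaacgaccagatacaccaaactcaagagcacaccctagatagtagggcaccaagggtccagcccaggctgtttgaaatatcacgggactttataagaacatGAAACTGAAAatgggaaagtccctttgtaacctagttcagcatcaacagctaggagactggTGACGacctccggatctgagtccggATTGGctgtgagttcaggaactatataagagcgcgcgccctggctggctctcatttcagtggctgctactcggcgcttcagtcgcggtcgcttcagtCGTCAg
In each of the 3 windows a TGACG is followed by an ATTGG whose first base lies 25 bases after that of TGACG, from −55, −101 and −78 relative to the transcript start. This arrangement, looked for after the sequences were seen, was present in 31 of 32851 mouse promoter windows on either strand (0.0944%), which belong to 27 genes. H2-K1, H2-D1 and B2m were the members with it, and of 19 other class I or class I-like genes with a window H2-M3 had it as well. H2-K1 and H2-D1 are close copies of each other, so their windows are not separate observations. The ISRE core in this exact form was found in B2m alone among the 8 members with a window (3.44% of all windows). Looser forms of the element were not searched for, so a window without a match may still hold one.

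For contrast, the windows of Tap1 (chr17:34187306-34187605, plus strand) and Tapbp (chr17:33919228-33919527, plus strand) are shown, as genes of the same cluster without the spaced pair. H2-K1, H2-D1 and B2m, the members with the pair, were called higher, and so was Tapbp without it. Tap1, Psmb8, Psmb9 and Psmb10 were without the pair and were not called. Nlrc5, called higher, and Tap2, not called, had no window. The spacing was read from the windows of H2-K1, H2-D1 and B2m, so their having the pair was fixed beforehand. H2-M3 had the pair and a log2 fold change of 0.52 (adjusted p = 0.0066 from limma), short of 1.5-fold. The relation of the pair to the changes was not tested.
Tap1: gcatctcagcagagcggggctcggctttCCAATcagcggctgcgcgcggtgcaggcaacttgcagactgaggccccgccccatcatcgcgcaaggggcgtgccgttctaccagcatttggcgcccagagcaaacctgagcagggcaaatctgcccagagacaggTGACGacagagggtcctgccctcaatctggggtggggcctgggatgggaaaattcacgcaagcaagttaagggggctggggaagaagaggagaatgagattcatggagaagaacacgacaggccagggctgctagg
Tapbp: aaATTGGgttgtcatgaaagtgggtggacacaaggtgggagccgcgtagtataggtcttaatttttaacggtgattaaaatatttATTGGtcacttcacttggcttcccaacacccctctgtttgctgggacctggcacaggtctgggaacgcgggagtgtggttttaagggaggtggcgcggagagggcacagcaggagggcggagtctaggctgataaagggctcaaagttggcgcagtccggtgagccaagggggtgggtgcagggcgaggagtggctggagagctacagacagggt
Tap1 and Psmb9 are transcribed away from each other from starts 226 bases apart, so their windows overlap and share letters. CCAAT was present in 6 of the 8 members with a window (37.4% of all windows), and TGACG in 5 of the 8 (20.8%). The GAS pattern was found in Psmb8 (8.30% of all windows). Psmb10 had none of the 4 patterns in its window. These are matches of letters and not measured binding.

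Of the 10 members, 5 were higher in APL, 0 were lower and 5 were not called, by limma with Benjamini-Hochberg adjustment. By the same rule 21.7% of all genes tested were higher and 24.4% were lower. The 5 that rose were H2-D1, H2-K1, Nlrc5, B2m and Tapbp, and the 3 APL libraries lay wholly above the 3 MP libraries for each of them, as they did for 31.1% of all genes tested, while 39.8% lay wholly below. The 5 that were not called were the peptide transporter genes Tap1 and Tap2 and the immunoproteasome genes Psmb8, Psmb9 and Psmb10, whose libraries overlapped. The median log2 fold change of the members was 0.47. Thus the genes for the displayed molecule, its chaperone at TAP and its transcriptional activator were higher, while changes were not detected in those for making and pumping the peptide. The same 5 genes were called under each scaling, filter and pseudocount tried and with each library left out, and 3 of them (H2-K1, H2-D1 and Nlrc5) exceeded a fold change of 2, where 14.9% of all genes were higher.

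**Figure D1:**
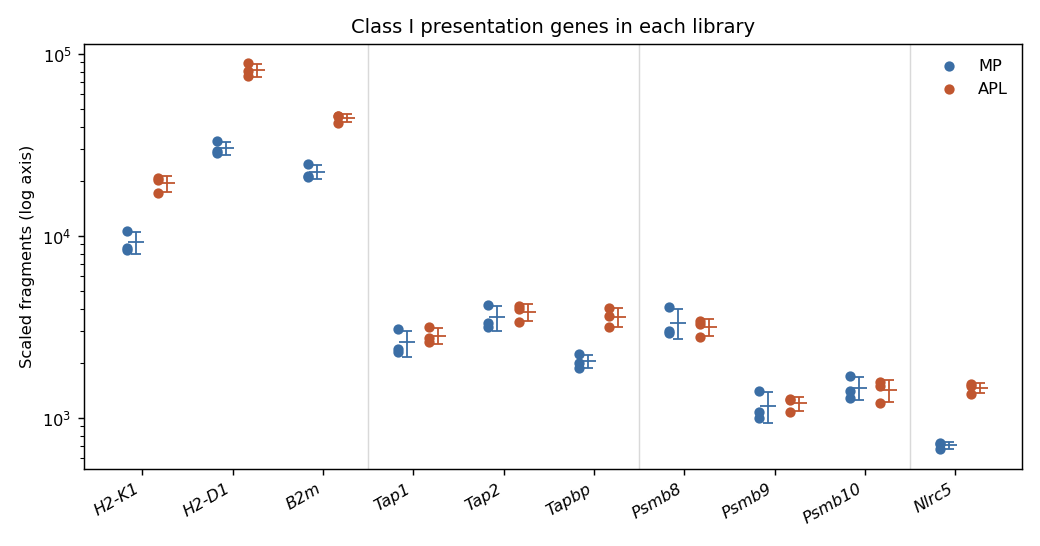
Scaled fragments (log axis) of the 10 genes in each of the 3 MP libraries (blue) and 3 APL libraries (orange), with the mean and SD beside the points. H2-K1, H2-D1, B2m, Tapbp and Nlrc5 lie higher in every APL library than in any MP library, whereas the points of Tap1, Tap2 and the Psmb genes overlap.

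H2-D1 (Entrez 14964, chromosome 17 of GRCm38 from 35263094 to 35267497) encodes a heavy chain that binds peptide and was the member with the most fragments. MP libraries 1 to 3 held 29504, 28442 and 33108 scaled fragments of it, and APL libraries 1 to 3 held 75664, 89031 and 80799. This was a 2.70-fold rise (95% interval 2.21 to 3.29) and a log2 fold change of 1.43 (SE 0.13, limma adjusted p = 1.1e-05). H2-K1 (Entrez 14972, chromosome 17 from 33996012 to 34000333), the other classical heavy chain, had 8407, 8646 and 10727 scaled fragments in MP and 17195, 20875 and 20405 in APL. Its rise was 2.11-fold (1.75 to 2.55, log2 fold change 1.08, SE 0.12, limma adjusted p = 5.3e-05). The lowest APL library held more than the highest MP library for both chains. B2m (Entrez 12010, on chromosome 2), the invariant light chain without which heavy chains do not reach the surface, had 21488, 21216 and 24914 scaled fragments in MP and 45889, 41958 and 45922 in APL. It was 1.98-fold higher (1.67 to 2.35, log2 fold change 0.99, SE 0.11, limma adjusted p = 4.9e-05). RefSeq places B2m from 122147687 to 122153082, inside a wider locus of the table from 122120108 to 122186189 that is shared with Patl2 and Trim69, and fragments could be divided among these genes. In the same way H2-L had the locus of H2-D1. Class I genes are close copies of one another and differ between mouse strains, while the reference sequence is of C57BL/6J and the mice were FVB N/J, and the part of this in the level of a single class I gene was not tested.

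Per length, B2m was the most abundant member, with 1279 ± 88.0 FPKM in MP and 2545 ± 136 in APL (SD, n = 3 each). H2-D1 followed with 635 ± 32.0 and 1729 ± 134 FPKM, and H2-K1 with 202 ± 22.9 and 436 ± 45.4. The summed FPKM of these 3 genes was between 0.378% and 0.399% of all FPKM in the MP libraries and between 0.744% and 0.782% in the APL libraries. Below them in MP came Psmb8 (121 ± 17.2), Psmb9 (68.8 ± 9.98), Tap2 (55.5 ± 6.78), Psmb10 (53.5 ± 5.42), Tap1 (35.7 ± 4.99), Tapbp (30.9 ± 1.97) and Nlrc5 (3.24 ± 0.130). In this order Tap2 and Psmb10 differed by less than the larger of their SDs, as did Tap1 and Tapbp. In APL, Psmb8 had 117 ± 12.2 FPKM and Psmb9 72.1 ± 5.97, while Tap2 (60.1 ± 6.45), Tapbp (54.1 ± 6.59) and Psmb10 (53.3 ± 7.52) lay within the largest of their SDs of one another. Tap1 had 39.1 ± 3.62 FPKM there and Nlrc5 6.68 ± 0.422. The B2m level exceeded the summed level of H2-K1 and H2-D1 in every library, by ratios between 1.502 and 1.542 in MP and 1.36, 1.06 and 1.13 in APL. The log2 ratio was lower by 0.38 in APL, with no overlap (two-sided exact permutation p = 0.1, the smallest that 3 against 3 libraries allow, and 0.17 after adjustment over the 5 ratios compared).

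Tapbp (Entrez 21356, chromosome 17 from 33919478 to 33929290) encodes tapasin, which edits the peptides that class I molecules keep. It had 2018, 1894 and 2240 scaled fragments in MP and 3150, 4031 and 3622 in APL. The groups did not overlap, and the rise was 1.75-fold (1.49 to 2.06, adjusted p = 1.3e-04 from limma). Tap1 and Tap2 encode the subunits of the peptide transporter, and both lie between H2-K1 and H2-D1 on chromosome 17. Tap1 had 2412, 2305 and 3090 scaled fragments in MP and 2610, 3148 and 2766 in APL, and Tap2 had 3323, 3185 and 4206 in MP and 3374, 3994 and 4105 in APL. For Tap1 MP library 3 reached into the range of APL, and for Tap2 it lay above every APL library. The fold change was 1.10 for Tap1 (95% interval 0.908 to 1.33, adjusted p = 0.35 from limma) and 1.08 for Tap2 (0.890 to 1.30, adjusted p = 0.46 from limma). Both intervals exclude a change of 1.5-fold in either direction. Without MP library 3 the log2 fold changes were 0.26 for Tap1, whose limma adjusted p of 0.026 then passed the threshold, and 0.23 for Tap2 (adjusted p = 0.057), both short of the called size of 1.5-fold. The ratio of Tap1 to Tap2 in FPKM ranged from 0.635 to 0.655 in MP and from 0.591 to 0.692 in APL (exact permutation p = 0.9).

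Psmb8, Psmb9 and Psmb10 encode the catalytic subunits that take the places of Psmb5, Psmb6 and Psmb7 in the immunoproteasome, a form that favours peptides fit for class I. Psmb8 had 3015, 2943 and 4058 scaled fragments in MP and 2796, 3288 and 3427 in APL. Psmb9 had 1083, 997 and 1415 in MP and 1078, 1262 and 1269 in APL, and Psmb10 had 1406, 1294 and 1712 in MP and 1206, 1575 and 1498 in APL. MP library 3 held the highest value of all 6 libraries for each of the 3 genes. It lay between 1.27 and 1.36 times the mean of MP libraries 1 and 2 for Tap1, Tap2 and these 3 genes. For the members called higher it lay at 1.26 times for H2-K1, 1.17 for B2m, 1.15 for Tapbp, 1.14 for H2-D1 and 1.04 for Nlrc5. The log2 fold changes were −0.064, 0.059 and −0.043, with 95% intervals from −0.37 to 0.24, from −0.24 to 0.36 and from −0.34 to 0.25 (adjusted p at least 0.69 from limma). A change of 1.5-fold lies outside these intervals, and the sign of the 3 values depended on the scaling or on the library left out.

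The standard subunits did not move as a set. Psmb5 had 2053 ± 417 scaled fragments in MP and 2930 ± 226 in APL, a log2 fold change of 0.53 that had an adjusted p of 0.0066 from limma but fell short of 1.5-fold. Psmb6 had a log2 fold change of −0.15 and Psmb7 of −0.26, neither past the threshold. In FPKM, Psmb8 stood at 1.03, 0.991 and 0.997 times Psmb5 in the MP libraries and at 0.647, 0.689 and 0.685 times in the APL libraries. This ratio was lower in every APL library than in any MP library, by 0.58 on the log2 scale. The ratio of Psmb9 to Psmb6 was higher in APL by 0.21 on the log2 scale, from 0.620 to 0.709 in MP and from 0.762 to 0.782 in APL, again without overlap. For Psmb10 to Psmb7 the ratios overlapped, from 0.334 to 0.377 in MP and from 0.361 to 0.451 in APL. The exact permutation p was 0.1 for the first 2 ratios and 0.2 for the last, and 0.17, 0.17 and 0.25 after adjustment over the 5 ratios, so none passed in a design whose smallest p is 0.1. The subunits of the immunoproteasome thus did not shift in a common direction relative to their counterparts.

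**Figure D2:**
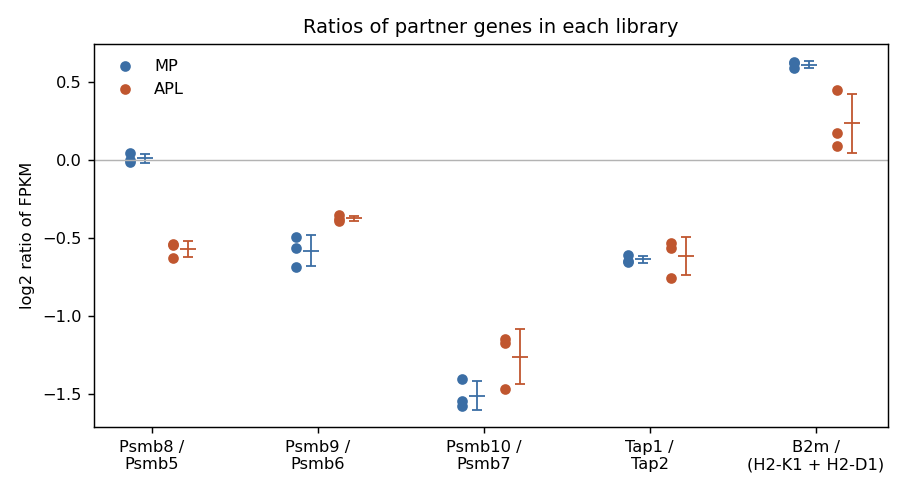
Log2 ratio of FPKM between partner genes in each MP (blue) and APL (orange) library, with the mean and SD beside the points. The Psmb8 to Psmb5 ratio and the B2m to heavy chain ratio lie lower in every APL library, the Psmb9 to Psmb6 ratio lies higher, and the other ratios overlap.

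Nlrc5 (Entrez 434341, chromosome 8 from 94472763 to 94527272), the activator of class I transcription, had 723, 673 and 727 scaled fragments in MP and 1540, 1507 and 1358 in APL. It was 2.07-fold higher (1.83 to 2.35, log2 fold change 1.05, SE 0.080, limma adjusted p = 4.4e-06) and had the smallest standard error among the members. RefSeq begins Nlrc5 upstream of the table's locus, at 94434335. Nlrc5 and Psmb10 lie on chromosome 8, whose 778 tested genes had a median log2 fold change of 0.48. Relative to that median, Nlrc5 stood 0.57 higher and Psmb10 0.52 lower. The median of the 790 tested genes of chromosome 17 was −0.13 and that of chromosome 2 was −0.18, so H2-K1, H2-D1, B2m and Tapbp stood 1.21, 1.57, 1.16 and 0.94 above the median of their chromosomes.

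**Figure D3:**
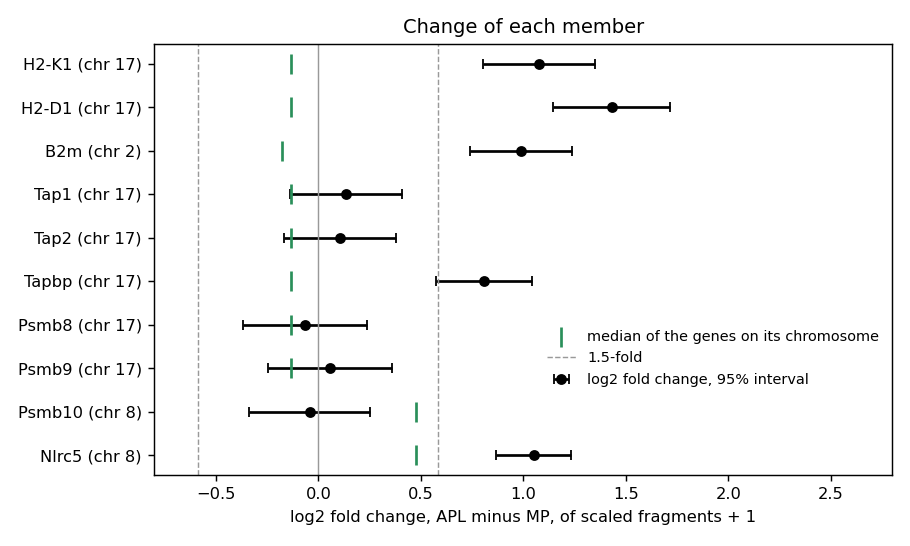
Log2 fold change (APL minus MP) of each member with its 95% interval from limma. Green ticks mark the median of the genes tested on the same chromosome, which is 0.48 for chromosome 8, and dashed lines mark 1.5-fold. The intervals of the TAP and Psmb genes include 0.

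The chains stood further above the peptide-supply genes in each APL library than in any MP library. The mean log2 value of H2-K1, H2-D1 and B2m minus that of Tap1, Tap2, Psmb8, Psmb9 and Psmb10 was 3.09, 3.16 and 2.97 in the MP libraries and 4.29, 4.14 and 4.16 in the APL libraries. This grouping was made after the values were seen and is given without a test. The genes whose profile over the 6 libraries was closest to that of H2-K1, out of 10309 with a mean of at least 100 scaled fragments, were Smpd1, Dpp3 and Shisa5. Their root mean square distances were 0.039, 0.042 and 0.055 on the log2 scale. Dpp3, a cytosolic peptidase that is also on the list below, had a log2 fold change of 1.03.

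Other class I chains were split. For comparison with this and the following lists, 21.7% of all genes tested were higher and 24.4% were lower. Of 25 tested class I and class I-like genes outside the members, 10 were higher, 4 were lower and 11 were not called, with a median log2 fold change of 0.46. H2-Q4, the most abundant of them, had 4175, 4171 and 5251 scaled fragments in MP and 6566, 7513 and 7211 in APL (log2 fold change 0.65). H2-K2 had the largest rise, from 98.9 ± 19.3 to 421 ± 53.7 scaled fragments (2.09), and H2-L, which shares its locus with H2-D1, had 1.498. H2-Q7 and H2-Q9 rose by 1.36 and 1.30 on the log2 scale, while H2-Q6 and H2-Q8, close copies of them, were not called. H2-Q8 had a log2 fold change of 0.49 (adjusted p = 0.076 from limma). H2-Q6 had 301, 0.037 and 279 scaled fragments in MP and 300, 0.14 and 218 in APL. These differ far more within a group than between groups, so the change of H2-Q6 is undetermined. In the table H2-Q7 shares a locus with H2-Q9, H2-Q6 with H2-Q8, H2-T23 with H2-T24 and H2-T9 with H2-T22. The division of fragments within each of these pairs is therefore uncertain. Of the 6 tested genes named H2-T, 3 fell and 3 were not called. H2-T24 went from 693, 680 and 831 scaled fragments in MP to 24.3, 23.5 and 38.0 in APL, a log2 fold change of −4.66. H2-T3 had −4.36. H2-T23, which encodes Qa-1, the ligand of the CD94 and NKG2A receptor, had 473, 522 and 683 scaled fragments in MP and 258, 304 and 248 in APL, a log2 fold change of −1.04 (adjusted p = 2.9e-04 from limma). H2-M3, which carries the spaced pair in its promoter window, had 294 ± 48.7 and 419 ± 18.1 scaled fragments, a log2 fold change of 0.52 that was not called.

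In the endoplasmic reticulum, 8 of 15 listed genes for folding and loading of class I molecules were higher and 1 was lower, with a median log2 fold change of 0.61. Calr, the calreticulin of the peptide loading complex, had 46774 ± 1410 scaled fragments in MP and 125230 ± 10425 in APL (1.42), and Pdia3, the oxidoreductase bound to tapasin, had 20562 ± 817 and 39699 ± 529 (0.95). Hspa5 (1.62), Hsp90b1 (1.11) and the glycoprotein checkpoint gene Uggt1 (0.93) also rose. These genes serve all secreted and membrane proteins and not class I molecules alone. Canx, the calnexin that receives new heavy chains, had a log2 fold change of 0.22 (adjusted p = 0.058 from limma) and Erap1, the peptidase that trims peptides to length, had 0.22 (adjusted p = 0.020), below the called size. Uggt2 fell by 1.19 on the log2 scale. Calr lies on chromosome 8 and stood 0.94 above the median log2 fold change of that chromosome.

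Before the transporter, the peptide supply did not rise as a group. Of 9 listed peptidases, 1 was called higher (Dpp3) and 0 were called lower. At a limma adjusted p under 0.05 with no fold cut, 2 of the 9 were higher and 3 were lower. Of the 14595 genes tested, 4342 were higher and 5443 lower in this way. Nrd1 and Ide, the most abundant of the 9, had log2 fold changes of 0.20 and 0.12. Of 14 genes for standard catalytic subunits, proteasome activators and assembly factors, 1 was higher and 3 were lower, with a median of −0.30. With the libraries scaled to the same total, 5 of the 14 were lower. Psme1, a subunit of the PA28 activator that interferon induces, had 3610, 3256 and 4250 scaled fragments in MP and 1999, 2471 and 2392 in APL (log2 fold change −0.69, adjusted p = 6.8e-04 from limma). Its partner Psme2 had −0.17 and was not called. Psme3, which encodes another activator, had −0.58 and was just short of the called size, while Psme4 rose by 0.88.

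Among 20 tested regulators of class I transcription, 2 were higher and 7 were lower, with a median log2 fold change of −0.25. The partners of NLRC5 at class I promoters were split. Rfx5, the DNA-binding RFX subunit, had 1096, 1120 and 1086 scaled fragments in MP and 842, 780 and 829 in APL (−0.43, not called for its size), and Rfxank rose by 0.81. Nfya and Nfyb, subunits of the Y box factor, fell by 0.67 and 0.65 on the log2 scale. Rfxank is on chromosome 8 and stood 0.34 above the median log2 fold change of that chromosome. The interferon-regulated activator Irf1 had 1020, 990 and 1259 scaled fragments in MP and 527, 703 and 605 in APL, a log2 fold change of −0.83 (adjusted p = 4.5e-04 from limma). Irf9 fell by 1.23 and Irf8 by 4.91 on the log2 scale. Ezh2, the methyltransferase of the Polycomb complex that can silence class I genes, fell from 4971 ± 316 to 2648 ± 139 scaled fragments (−0.91), and Eed fell by 0.60. Suz12 and Nfkb1, the most abundant genes of the list, were not called (−0.14 and 0.045).

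Genes that answer to interferon did not move in a single direction. Of 26 listed interferon-inducible genes outside antigen presentation, 8 were higher, 10 were lower and 8 were not called, with a median log2 fold change of −0.32. Gbp3 had 606, 605 and 648 scaled fragments in MP and 2647, 2845 and 2768 in APL (2.15), and Ifit2 rose by 1.94. The chemokine gene Cxcl10 rose from 14.8 ± 5.49 to 644 ± 33.1 scaled fragments (5.42). By contrast Tgtp2 fell from 951 ± 171 to 52.8 ± 9.94 scaled fragments (−4.15), and Ifi47, which shares a locus with Tgtp2, and Usp18 fell by 1.805 and 2.78 on the log2 scale. Of 10 interferon receptor, kinase and inhibitor genes, 2 were called higher and 1 lower. At a limma adjusted p under 0.05 with no fold cut, 7 of the 10 were higher and 1 was lower. Of the 14595 genes tested, 4342 were higher and 5443 lower in this way. Socs1 and Socs3, inhibitors of JAK signalling, rose by 2.85 and 2.03, and Jak2 fell by 0.66. Ifngr1, a chain of the interferon gamma receptor and the most abundant gene of this list, had 0.55 (adjusted p = 2.7e-04 from limma). That was short of 1.5-fold. Jak1 had 0.12.

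The class II pathway, which presents peptides from outside the cell to CD4+ T cells, moved the other way. Of its 10 listed genes, 9 were lower in APL, 0 were higher and 1 was not called (H2-Eb1), with a median log2 fold change of −2.36, although most of them lie in the same cluster on chromosome 17. H2-Eb1 was barely detected in either group, with 4.34 ± 1.46 scaled fragments in MP and 5.59 ± 1.99 in APL. H2-DMa, which loads peptide onto class II molecules, had 327, 337 and 488 scaled fragments in MP and 103, 114 and 109 in APL (−1.79), and H2-DMb1 had −0.65. Ciita, the class II activator and a relative of Nlrc5, had 32.8, 19.0 and 17.1 scaled fragments in MP and 0, 2.60 and 0 in APL, at most 3 fragments before scaling in any APL library. H2-Aa fell from 88.1 ± 20.5 to 3.46 ± 1.01 scaled fragments. Without MP library 3, 7 of the 10 were lower. The macrophage, dendritic cell and B cell markers above also differed between the groups, and their part in the class II values was not tested.

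**Figure D4:**
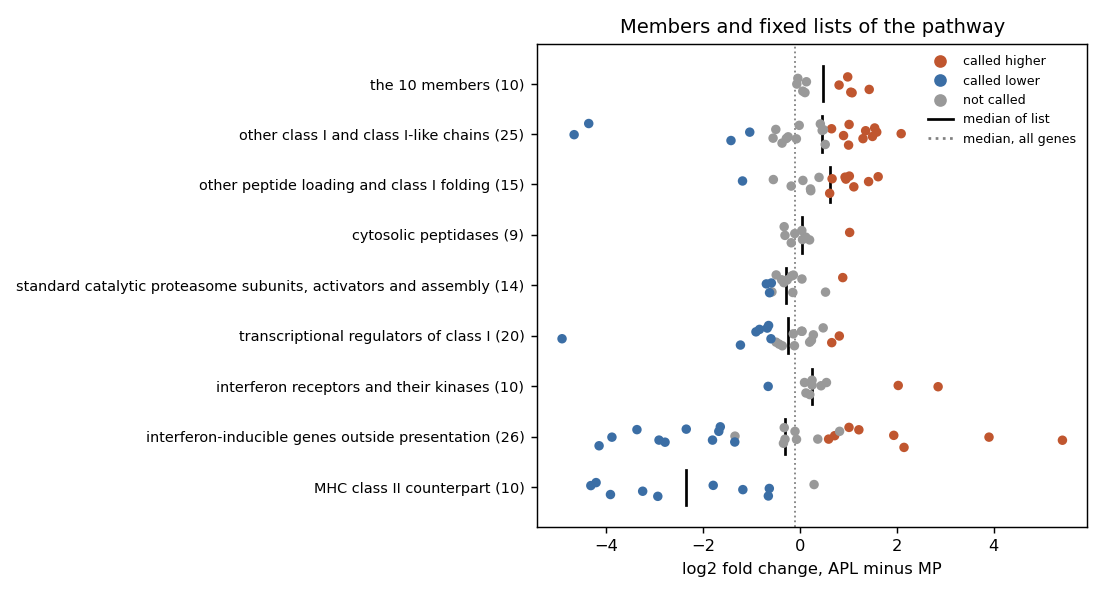
Log2 fold change (APL minus MP) of the members and of each tested gene of the listed groups, with the number tested in brackets. Orange points were called higher, blue points lower and grey points not called, black bars are list medians and the dotted line is the median of all genes tested, −0.10. The class II genes lie to the left with 1 exception, the barely detected H2-Eb1. The folding genes lie mostly to the right, and the other class I chains lie on both sides.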

How the data were processed

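RNA-seq of 3 normal MP and 3 c-Kit+ APL libraries was analysed from 1 deposited table of 16440 genes. The authors deposited FPKM values and estimated fragments. The deposited fragments are a signal on the fragment scale, since the smallest step was specific to a library and not every value was a multiple of it, so no count test was used. The submitters' processing notes list CASAVA 1.8, TopHat2 2.0.6 and mm10, whereas the study's methods name STAR on mm9, HTSeq-count and DESeq2, and the program behind the table is not given in the sources used here. The loci follow GRCm38 (start counted from 0 in the table and from 1 here), and 16361 identifiers (99.5%) matched RefSeq. Alignment and counting were not repeated.

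limma 3.58.1 in R 4.3.3 (lmFit, eBayes with trend) was run on log2(scaled fragments + 1) for genes with at least 1 in at least 3 libraries, which was tested on simulated data first. A fold change on this scale understates that of genes with few fragments. Ratios were compared with two-sided exact permutation tests. The members, lists and alternatives were chosen with earlier results of these data known. The named genes were all members, and from each list the 2 with the most fragments, the largest called change in each direction and genes preset by name, plus the 3 profiles nearest to H2-K1. Further genes (H2-Q6, H2-Q7, H2-Q8, H2-Q9, H2-T3, H2-T9, H2-T22, H2-T23, H2-M3, Nfya, Nfyb, Ezh2, Eed, Irf9, Hsp90b1, Uggt1, Ifi47, Usp18, Socs3, Ciita, H2-Eb1, Ly6a, Cd3e, Cd3g and Ms4a1) were named after their values were seen. Some genes covered by these rules are not reported here. The library number was not used as a block. Promoters came from RefSeq, 8 of the 10 members matching. Figures were drawn with matplotlib 3.10.9.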

Additional observations from a re-analysis of the deposited data

How the results depend on the processing

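The fold changes of the 10 members were recomputed under 16 alternatives, and 150 of 160 values kept their direction and their side of the threshold. The other 10 were changes of sign among the genes that were not called. Scaling to the same total, which moved the median of all genes by −0.13 as voom weights also did, gave Tap2 −0.026 and Psmb9 −0.072, voom weights gave −0.027 and −0.073, and the median ratio gave Psmb10 0.019. With 1 library left out at a time, Psmb8 ranged from −0.15 to 0.085, Psmb9 from −0.045 to 0.21 and Psmb10 from −0.13 to 0.073. Over all alternatives the log2 fold change of H2-D1 was between 1.19 and 1.49, of H2-K1 between 0.95 and 1.19, of B2m between 0.86 and 1.06, of Nlrc5 between 0.92 and 1.11 and of Tapbp between 0.68 and 0.90, and the adjusted p of these 5 was at most 0.0011. At a fold change over 2, 3 members in place of 5 and 21 in place of 32 genes of the lists were called higher. Under a replicate block by library number, 5 members were called higher and 32 and 36 list genes higher and lower, against 32 and 35. Same-numbered libraries deviated together with correlations of 0.21, 0.042 and 0.21, and APL library 2 deviated most like MP library 3 (0.13), so the numbers were not taken as pairs. With scaled fragments in place of FPKM, with the block or with a library left out, no log2 ratio of partner genes moved by more than the larger of its 2 group SDs, though some moved by more than the smaller. The B2m to heavy chain difference ranged from −0.48 to −0.30 with a library left out and Psmb9 to Psmb6 from 0.15 to 0.25, and Tap1 to Tap2 changed sign without APL library 1 or 2 (−0.0068 and −0.024). The lowest member value was 673 scaled fragments (Nlrc5, MP library 2), and depth limits the genes of the lists with a few fragments most.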

Other observations

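The MHC region between H2-K1 and H2-D1 (chromosome 17 from 33996012 to 35267497) held 77 genes of the table besides the members. Of the 70 tested, 16 were higher in APL, 24 were lower and 30 were not called, with a median log2 fold change of −0.18, close to the −0.13 of the whole chromosome. The class II genes of chromosome 17 and H2-L are among them. Over all genes tested, 21.7% were higher and 24.4% were lower. Slc44a4, which encodes a choline transporter-like protein, had the largest rise, from 27.5 ± 5.89 to 539 ± 79.9 scaled fragments, a log2 fold change of 4.25. BC051537 had the largest fall, from 682 ± 218 to 7.07 ± 3.23 (−6.45). The most abundant genes of the region, Prrc2a and Ddx39b, had −0.22 and −0.51 and were not called. Neu1, a lysosomal sialidase gene named after its values were seen, rose from 1544 ± 126 to 4418 ± 306 scaled fragments (1.52).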
